A study of Mus musculus and Rattus norvegicus with 21 samples.

Results

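The 10 cAMP-responsive immediate early genes Crem, Dusp1, Egr1, Fos, Fosb, Jun, Junb, Nr4a1, Ier2 and Atf3 were examined in chromatin of the mouse thyroid gland. They were taken by name, as 10 of the 21000 protein-coding genes that had a curated RefSeq transcript. ChIP-seq peaks of NKX2.1 and PAX8, transcription factors (TFs) that define the thyroid, came from glands labelled as WT, of mice on the TD.95125 feed poor in iodine (LID). The histone marks H3K4me3 and H3K27me3 were mapped in 4 groups, namely Glis3KO-LID, WT-LID, Glis3KO-ND and WT-ND, where ND was the NIH-31 normal diet. All mice were labelled as C57BL/6 and 1 month old. The knockout genotype was labelled B6.Glis3<tm2(mCherry)Amj>, a germline allele with an mCherry insertion that is carried by every cell type and not only by the follicular cells. According to the study's methods the mice of the factor libraries carried a Glis3-EGFP allele, were older and were longer on the LID, so factor peaks and histone regions may come from different mice. Each factor or mark had 1 library per group, so every comparison below is between 2 libraries, without replicate error and without a test. Whole glands were used, and in such tissue fewer cells with a mark and less of the mark per cell cannot be told apart.

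Thyroid-stimulating hormone (TSH) acts on follicular cells through a receptor that raises cAMP. Protein kinase A then phosphorylates CREB, which binds cAMP response elements (CREs) in promoters, and the immediate early genes are transcribed within minutes without new protein synthesis. Many of them answer growth factors as well, through MAP kinases and serum response factor. JUN, JUNB, FOS and FOSB pair into the TF AP-1, CREM and ATF3 belong to the CREB/ATF family, EGR1 is a zinc finger TF, NR4A1 is an orphan nuclear receptor, DUSP1 is a phosphatase that switches off MAP kinases, and IER2 is a small nuclear protein. Less iodine in the diet raises TSH. H3K4me3 marks active or poised promoters, and H3K27me3 is placed by Polycomb complexes on repressed genes.

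The promoters of 7 of the 10 genes (Atf3, Dusp1, Fos, Fosb, Jun, Junb and Nr4a1) matched the RefSeq table of promoter windows (GRCm38.p6, 250 bases before to 50 bases after the start of the gene). The 6 below are shown because NKX2.1 or PAX8 peaks lay on or beside them. They are the 250 bases before the start site on the coding strand, with the CRE TGACGTCA, its core TGACG and the EGR site GCGGGGGCG in capitals on either strand. The core is part of the CRE.
Fos, chr12:85473640-85473889, plus strand: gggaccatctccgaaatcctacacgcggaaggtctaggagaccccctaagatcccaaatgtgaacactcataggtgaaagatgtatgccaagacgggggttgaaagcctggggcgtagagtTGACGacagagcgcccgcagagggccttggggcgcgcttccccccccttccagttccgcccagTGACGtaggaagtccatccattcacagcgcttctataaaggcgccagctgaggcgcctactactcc
Nr4a1, chr15:101266596-101266845, plus strand: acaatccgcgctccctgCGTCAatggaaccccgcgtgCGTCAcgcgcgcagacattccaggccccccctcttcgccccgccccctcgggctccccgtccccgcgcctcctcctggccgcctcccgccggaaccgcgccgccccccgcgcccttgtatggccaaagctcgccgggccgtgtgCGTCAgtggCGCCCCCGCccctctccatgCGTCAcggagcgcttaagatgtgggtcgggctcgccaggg
Atf3, chr1:191183334-191183583, minus strand: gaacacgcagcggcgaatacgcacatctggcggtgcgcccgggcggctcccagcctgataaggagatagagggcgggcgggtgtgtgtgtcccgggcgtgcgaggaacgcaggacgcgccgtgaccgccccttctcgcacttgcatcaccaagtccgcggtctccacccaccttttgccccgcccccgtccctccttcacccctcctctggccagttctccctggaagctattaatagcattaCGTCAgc
Dusp1, chr17:26508473-26508722, minus strand: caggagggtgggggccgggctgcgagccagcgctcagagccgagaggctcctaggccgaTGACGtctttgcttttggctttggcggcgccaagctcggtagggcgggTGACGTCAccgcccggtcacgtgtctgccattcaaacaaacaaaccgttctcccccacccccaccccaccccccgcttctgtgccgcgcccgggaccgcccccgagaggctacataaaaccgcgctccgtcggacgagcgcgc
Jun, chr4:95052223-95052472, minus strand: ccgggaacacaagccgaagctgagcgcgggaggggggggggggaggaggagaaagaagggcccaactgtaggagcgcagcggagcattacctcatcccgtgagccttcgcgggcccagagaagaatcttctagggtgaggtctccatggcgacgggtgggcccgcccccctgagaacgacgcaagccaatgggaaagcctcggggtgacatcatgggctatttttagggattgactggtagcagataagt
Junb, chr8:84978749-84978998, minus strand: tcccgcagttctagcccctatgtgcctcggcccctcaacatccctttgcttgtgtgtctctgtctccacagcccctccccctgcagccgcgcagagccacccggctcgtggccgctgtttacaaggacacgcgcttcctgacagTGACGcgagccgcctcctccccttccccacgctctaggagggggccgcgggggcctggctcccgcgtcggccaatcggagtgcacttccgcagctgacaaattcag
Position -1 is the base before the start site, and a match is given by its most upstream base. Fos held the CRE core at -129 and -66, Atf3 at -7, and Nr4a1 at -233, -213, -69 and -40. Dusp1 held the complete CRE at -143 and a further core at -191. Nr4a1 also held an EGR site at -60 and the PAX core GTCACGC at -212. Junb held the CRE core at -106, and Jun held none of these motifs. Only exact matches counted, so the tgacatca in the printed Jun bases, which resembles TGACGTCA, was left out. Fosb, which had no peak of either factor within 5 kb of its start site and is not shown, had a CRE core at -60 and an EGR site at -50.

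Over the windows of 300 bases, 6 of the 7 members held the CRE core, against 20.8% of all 32851 promoter windows, and 1 of 7 held the complete CRE, against 1.79%. The EGR site was present in 2 of 7 (2.91% of all windows), the PAX core in 1 (2.09%) and the NKX2.1 core CAAGTG in 1, Atf3 at -113 (13.6%). Neither the AP-1 site TGAGTCA (5.2% of all windows) nor the CArG box bound by serum response factor (1.63%) occurred in these 7 members' windows. Bases farther upstream and the promoters of Crem, Egr1 and Ier2 lay outside this search. Whether they hold either site was not tested here, so the absence holds for the searched windows only. All motifs were searched on both strands as exact matches, so near matches were not counted.

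NKX2.1 and PAX8 peaks were then counted over each gene and 50 kb either side. Every member had at least 1 NKX2.1 peak there (10 of 10, against 79.1% of all protein-coding genes) and at least 1 PAX8 peak (10 of 10, against 80.7%). An NKX2.1 peak that overlapped a PAX8 peak was present for 9 of 10, against 64.8% of all genes, with Dusp1 the exception. In all, 47 NKX2.1 peaks and 62 PAX8 peaks fell in these windows. The median member had 4 NKX2.1 and 6 PAX8 peaks, and the median gene had 3 and 4. Of the NKX2.1 peaks 31 of 47, and of the PAX8 peaks 35 of 62, had the member's own start site as the nearest one of a protein-coding gene.

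The members differed more near their start sites. An NKX2.1 peak lay within 5 kb of a transcription start site (TSS) in 6 of 10 (Crem, Dusp1, Jun, Junb, Ier2 and Atf3), against 35.4% of all genes, and the same 6 had it within 1 kb, against 21.1%. PAX8 lay within 5 kb in 9 of 10, all except Fosb, against 42.0% of all genes. Within 1 kb PAX8 was present in 8 of 10, all except Egr1 and Fosb, against 29.3%. Peaks were 300 bp wide, and a peak counted when any base of it fell within the distance. For Crem the NKX2.1 peaks lay at internal start sites and overlapped no H3K4me3 region of WT-LID thyroids. The background takes in genes without H3K4me3 near a start site, whereas all 10 members carried it, and shares among marked genes were not computed. With 10 genes chosen by name and no replicate library, these shares describe the members beside the background and were not tested.

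**Figure D1:**
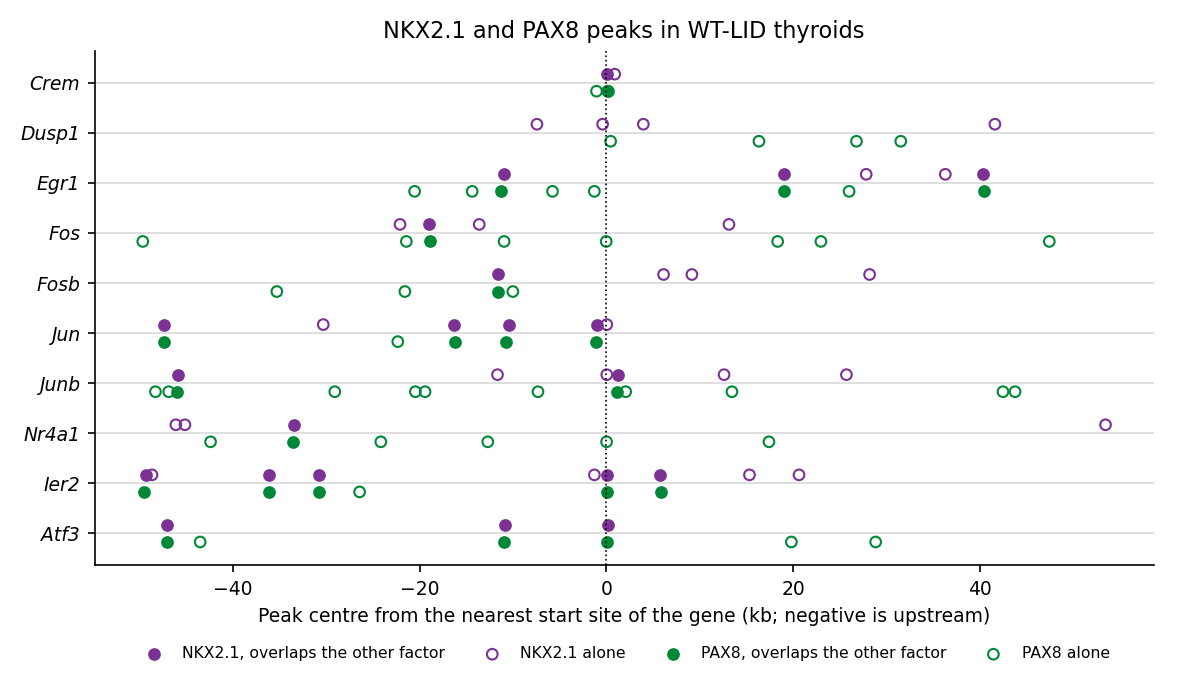
NKX2.1 (purple) and PAX8 (green) peaks over the 10 genes and 50 kb either side in WT-LID thyroids, by the distance in kb of the peak centre from the nearest start site of that gene (negative is upstream). Filled circles are peaks that overlap a peak of the other factor, and open circles are peaks that do not. All 4 overlapping Jun pairs lie upstream, and Ier2 and Atf3 have a pair at the start site.

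Among the AP-1 genes, Jun (chr4:95049036-95052222, minus strand) had 6 NKX2.1 and 5 PAX8 peaks. All 11 were closer to the start site of Jun than to that of another protein-coding gene. An NKX2.1 peak was centred 42 bp downstream of the start site, in the exon. A further 4 NKX2.1 peaks overlapped PAX8 peaks. Their centres were 1054, 10454, 16296 and 47347 bp upstream, and the PAX8 centres in the same order were 1074, 10747, 16194 and 47357 bp upstream. No other protein-coding gene starts within 50 kb of Jun, and non-coding genes were not examined. The bases shared by both factors are printed for the nearest and the farthest of these places, in the direction of Jun, with the NKX2.1 core CAAGTG in capitals.
Jun, 1064 bp upstream, chr4:95053147-95053426: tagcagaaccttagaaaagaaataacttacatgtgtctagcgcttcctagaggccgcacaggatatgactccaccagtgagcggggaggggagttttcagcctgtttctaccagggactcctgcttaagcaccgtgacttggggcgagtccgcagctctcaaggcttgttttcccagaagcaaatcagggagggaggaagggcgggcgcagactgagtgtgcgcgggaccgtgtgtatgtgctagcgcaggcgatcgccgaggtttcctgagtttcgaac
Jun, 47352 bp upstream, chr4:95099430-95099719: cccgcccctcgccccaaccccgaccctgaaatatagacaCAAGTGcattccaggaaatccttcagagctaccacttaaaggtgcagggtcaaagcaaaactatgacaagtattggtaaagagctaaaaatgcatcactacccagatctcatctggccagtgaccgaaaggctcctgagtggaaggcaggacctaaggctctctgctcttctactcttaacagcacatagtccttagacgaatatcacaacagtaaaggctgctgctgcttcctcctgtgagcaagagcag
The nearer stretch overlapped H3K4me3 of WT-LID thyroids and held none of the motifs searched in it, which were CAAGTG, the PAX core, the AP-1 site and the CRE core. The farther stretch held CAAGTG and overlapped no H3K4me3 region.

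Junb (chr8:84976909-84978748, minus strand) had the most PAX8 peaks of the members, 12, and 6 NKX2.1 peaks. Only 6.0% of all genes had as many PAX8 peaks in such a window. However, 8 other protein-coding genes start within 50 kb of Junb, and only 2 of the 12 PAX8 and 2 of the 6 NKX2.1 peaks were nearest to it. An NKX2.1 peak was centred 40 bp downstream of the Junb start site. An overlapping NKX2.1 and PAX8 pair lay in the single exon at 1208 and 1089 bp, and a PAX8 peak lay past the end of the gene at 2066 bp.

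Fos (chr12:85473890-85477274, plus strand) had a PAX8 peak centred 20 bp upstream of its start site, over the promoter bases printed above. No NKX2.1 peak overlapped it, and the closest NKX2.1 peak was 13121 bp downstream. In total Fos had 8 PAX8 and 4 NKX2.1 peaks. NKX2.1 and PAX8 overlapped once, with centres 18960 and 18934 bp upstream, at chr12:85454807-85455080. Fosb (chr7:19302696-19310045, minus strand) differed from the other AP-1 genes in that neither factor was found within 5 kb of its start site. Its closest NKX2.1 peak was 6121 bp downstream in an exon, and its closest PAX8 peak was 10014 bp upstream. The factors overlapped at 11631 bp (NKX2.1) and 11581 bp (PAX8) upstream, and Fosb was still the nearest gene. The shared bases, in the direction of Fosb, held an AP-1 site, in capitals, which was found in 9.72% of all NKX2.1 and 8.21% of all PAX8 peaks.
Fosb, 11606 bp upstream, chr7:19321527-19321776: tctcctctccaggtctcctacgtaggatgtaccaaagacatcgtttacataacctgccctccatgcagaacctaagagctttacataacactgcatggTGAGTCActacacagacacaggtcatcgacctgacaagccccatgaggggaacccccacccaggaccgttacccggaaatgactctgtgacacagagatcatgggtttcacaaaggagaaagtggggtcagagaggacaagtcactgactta

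Of the CREB/ATF genes, Atf3 (chr1:191170296-191183333, minus strand) had 3 NKX2.1 peaks, each overlapping 1 of its 6 PAX8 peaks. The pair at the start site had its NKX2.1 centre 121 bp and its PAX8 centre 67 bp downstream. The other 2 pairs lay upstream, with NKX2.1 at 10858 and 47033 bp and PAX8 at 10974 and 47066 bp. Both upstream stretches held CAAGTG, which occurred in 32.4% of all NKX2.1 and 26.7% of all PAX8 peaks. The nearer of them, in the direction of Atf3, is given with CAAGTG in capitals.
Atf3, 10916 bp upstream, chr1:191194158-191194341: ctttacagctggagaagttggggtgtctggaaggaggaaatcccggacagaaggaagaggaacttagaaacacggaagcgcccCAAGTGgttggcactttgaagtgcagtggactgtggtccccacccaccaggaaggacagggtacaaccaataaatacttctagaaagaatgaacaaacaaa

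Crem lies on the minus strand of chromosome 18 and is the longest member, 71277 bp, with 6 curated start sites for 19 transcripts. Transcripts from an internal promoter near the end of this gene encode the repressor ICER, which cAMP induces. RefSeq does not use that name, so no start site was assigned to it. Crem had 2 NKX2.1 and 3 PAX8 peaks, all 5 within the gene and all but 1 of them centred within 1 kb of a start site. PAX8 alone was centred 133 bp from the most upstream start sites, where it overlapped H3K4me3 of WT-LID thyroids. The only overlapping pair was at the last start site, 56498 bp into the gene, with NKX2.1 at 29 bp and PAX8 at 140 bp downstream. No H3K4me3 region was listed within 1 kb of that site in Glis3KO-LID, WT-LID or WT-ND thyroids. In Glis3KO-ND thyroids a region of 501 bp was listed there, the narrowest width in these lists.

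Egr1, on the plus strand of chromosome 18, had 8 PAX8 and 5 NKX2.1 peaks, of which 3 pairs overlapped. Egr1 was the nearest gene for 4 of the PAX8 and 2 of the NKX2.1 peaks. The closest PAX8 peak was 1291 bp upstream and the closest NKX2.1 peak 10980 bp upstream. Nr4a1 (chr15:101266846-101274795, plus strand) had a PAX8 peak centred 20 bp downstream of the start site, reaching back over its promoter, whereas the closest of its 4 NKX2.1 peaks was 33407 bp away. None of those 4 NKX2.1 peaks was nearest to Nr4a1. Dusp1 (chr17:26505591-26508472, minus strand) had 4 peaks of each factor with no overlap. The closest were an NKX2.1 peak centred 404 bp upstream and a PAX8 peak centred 452 bp downstream, either side of the start site. Ier2 (chr8:84661331-84662852, minus strand) had 9 NKX2.1 peaks, the most of the members (11.7% of all genes had as many), and 6 PAX8 peaks, 5 of which overlapped an NKX2.1 peak. Of these, 5 NKX2.1 and 2 PAX8 peaks were nearest to Ier2, and by that count Jun had more NKX2.1 peaks, 6. At the Ier2 start site the centres of NKX2.1 and PAX8, 20 and 12 bp downstream, were 8 bp apart, whereas the median over the 21 pairs was 52 bp.

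The pairs were no more frequent than elsewhere in the lists. Over all windows, 21 of 47 NKX2.1 peaks (44.7%) overlapped a PAX8 peak, against 50.8% of the whole NKX2.1 list. For PAX8 the overlap was 21 of 62 peaks (33.9%), against 45.9% of the whole PAX8 list. Peaks that overlapped H3K4me3 regions of WT-LID thyroids took a larger share, 16 of 47 NKX2.1 peaks (34.0%, against 10.3% of the list) and 25 of 62 PAX8 peaks (40.3%, against 13.4%). The windows are centred on genes that all carried H3K4me3. Motifs were also counted in the peaks at the 7 members whose promoters were searched. The CRE core occurred in 6 of 31 NKX2.1 peaks (12.8% of that list) and in 12 of 45 PAX8 peaks (15.1%). CAAGTG occurred in 7 of 31 NKX2.1 and 10 of 45 PAX8 peaks, below the shares in the whole lists. The PAX core was in 1 of 45 PAX8 peaks, against 4.0% of all PAX8 peaks, and in none of the 31 NKX2.1 peaks, against 1.31%.

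H3K4me3 was present within 1 kb of a start site in all 10 members in each library. The share of all genes was 60.1% in Glis3KO-LID, 63.0% in WT-LID, 62.5% in Glis3KO-ND and 62.2% in WT-ND. Widths below are the summed bp of the regions that reach within 1 kb of any start site of the gene, and a wider region says nothing of the height of the signal, which the lists do not hold. The median member had 2813 bp in Glis3KO-LID, 3146 bp in WT-LID, 3697.5 bp in Glis3KO-ND and 3618 bp in WT-ND thyroids. The medians of all genes with the mark were 1547, 1748.5, 1672 and 1700 bp in the same order. All 10 members lay above that median in each of the 4 libraries.

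**Figure D2:**
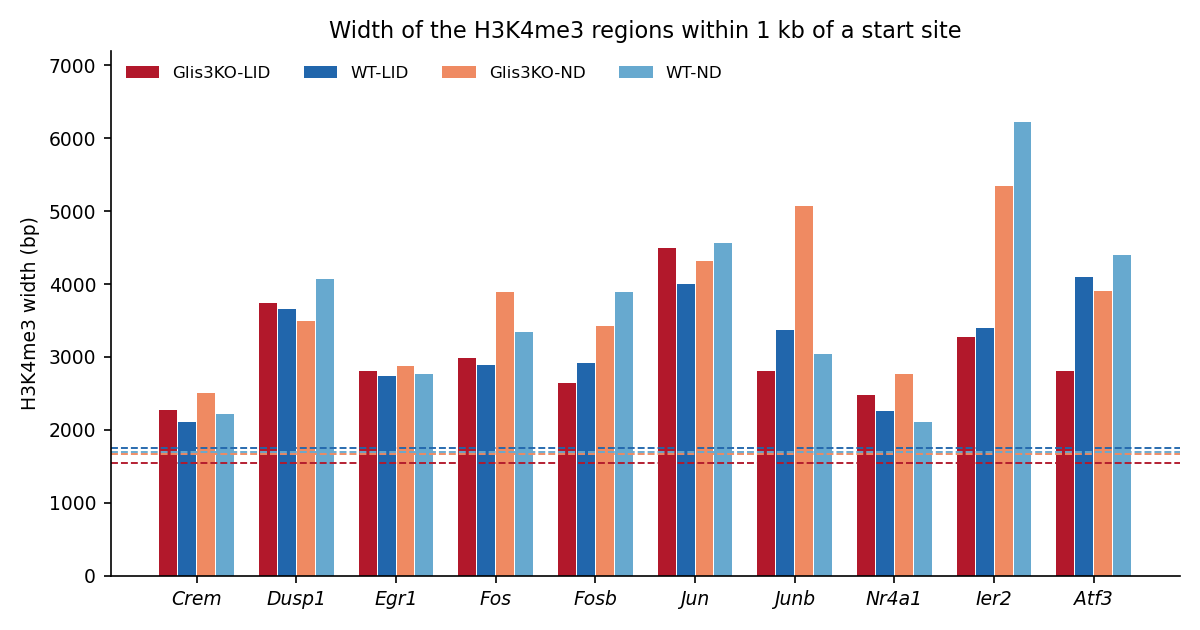
Width in bp of the H3K4me3 regions within 1 kb of a start site of each gene, with 1 bar for each library (Glis3KO-LID, WT-LID, Glis3KO-ND and WT-ND, 1 library each, no error). Dashed lines are the medians over all genes with the mark, and every bar stands above the line of its library.

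Jun was broad and steady, with 4496 bp in Glis3KO-LID, 4002 bp in WT-LID, 4319 bp in Glis3KO-ND and 4563 bp in WT-ND. At least 96.8% of genes with the mark were narrower than Jun in each library. Dusp1 was next in steadiness among the broad members, at 3734, 3659, 3499 and 4072 bp in the same order. At Egr1 the 4 widths were almost equal, 2813 bp in Glis3KO-LID, 2737 bp in WT-LID, 2878 bp in Glis3KO-ND and 2770 bp in WT-ND. The narrowest members were Nr4a1, with 2474, 2254, 2762 and 2104 bp in that order, and Crem, with 2268, 2113, 2504 and 2212 bp. The Crem width in Glis3KO-ND included the 501 bp region at the internal start sites, without which it was 2003 bp, the lowest of the 4. For these 5 genes the widest library was at most 1.313 times the narrowest.

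Ier2 was narrower on the LID in both genotypes. Its width was 3276 bp in Glis3KO-LID and 3399 bp in WT-LID, against 5348 bp in Glis3KO-ND and 6224 bp in WT-ND thyroids. Both LID libraries lay below both ND libraries. The difference arose upstream of the gene. In the LID libraries the region ended 275 bp (Glis3KO-LID) and 286 bp (WT-LID) upstream of the start site, whereas it reached 3102 bp (Glis3KO-ND) and 3119 bp (WT-ND) upstream in the ND libraries. A separate region lay farther upstream on the LID, of 1678 bp in Glis3KO-LID and 1762 bp in WT-LID, beyond gaps of 985 and 849 bp. Counting regions within 5 kb of the start site, Ier2 had 4954 bp in Glis3KO-LID, 5161 bp in WT-LID, 5348 bp in Glis3KO-ND and 6224 bp in WT-ND. What distinguished the LID libraries at Ier2 was thus an interruption of the domain just upstream of the start site more than a loss of its outer part. An NKX2.1 peak of WT-LID thyroids was centred 1283 bp upstream and overlapped the separate upstream region of that group.

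Interruptions upstream of the start site occurred at 3 further members. At Junb the region reached 123 bp upstream in Glis3KO-LID, 623 bp in WT-LID, 2211 bp in Glis3KO-ND and 248 bp in WT-ND, and separate upstream regions were present in Glis3KO-LID (501 and 629 bp) and WT-LID (913 bp). Junb measured 2813 bp in Glis3KO-LID, 3369 bp in WT-LID, 5073 bp in Glis3KO-ND and 3046 bp in WT-ND, so Glis3KO-ND stood apart from the other 3 libraries. At Atf3 the domain was split only in Glis3KO-LID, into 1229 and 1582 bp with a gap of 659 bp. Its widths were 2811 bp in Glis3KO-LID, 4102 bp in WT-LID, 3908 bp in Glis3KO-ND and 4400 bp in WT-ND. At Fos it was split upstream only in WT-LID, into 1155 and 1730 bp with a gap of 916 bp. The Fos widths were 2991 bp in Glis3KO-LID, 2885 bp in WT-LID, 3896 bp in Glis3KO-ND and 3345 bp in WT-ND. Fosb was not split within 1 kb and measured 2641 bp in Glis3KO-LID, 2923 bp in WT-LID, 3431 bp in Glis3KO-ND and 3891 bp in WT-ND. Fos and Fosb, like Ier2 and Atf3, were narrower in each LID library than in the ND library of the same genotype. Separate regions also lay downstream of the start site, within 5 kb. Dusp1 had such a region in Glis3KO-ND (gap of 532 bp) and WT-ND (1475 bp) but in neither LID library. Egr1 and Fos had it only in Glis3KO-ND (gaps of 554 and 543 bp), and Fosb in Glis3KO-LID, Glis3KO-ND and WT-ND.

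**Figure D3:**
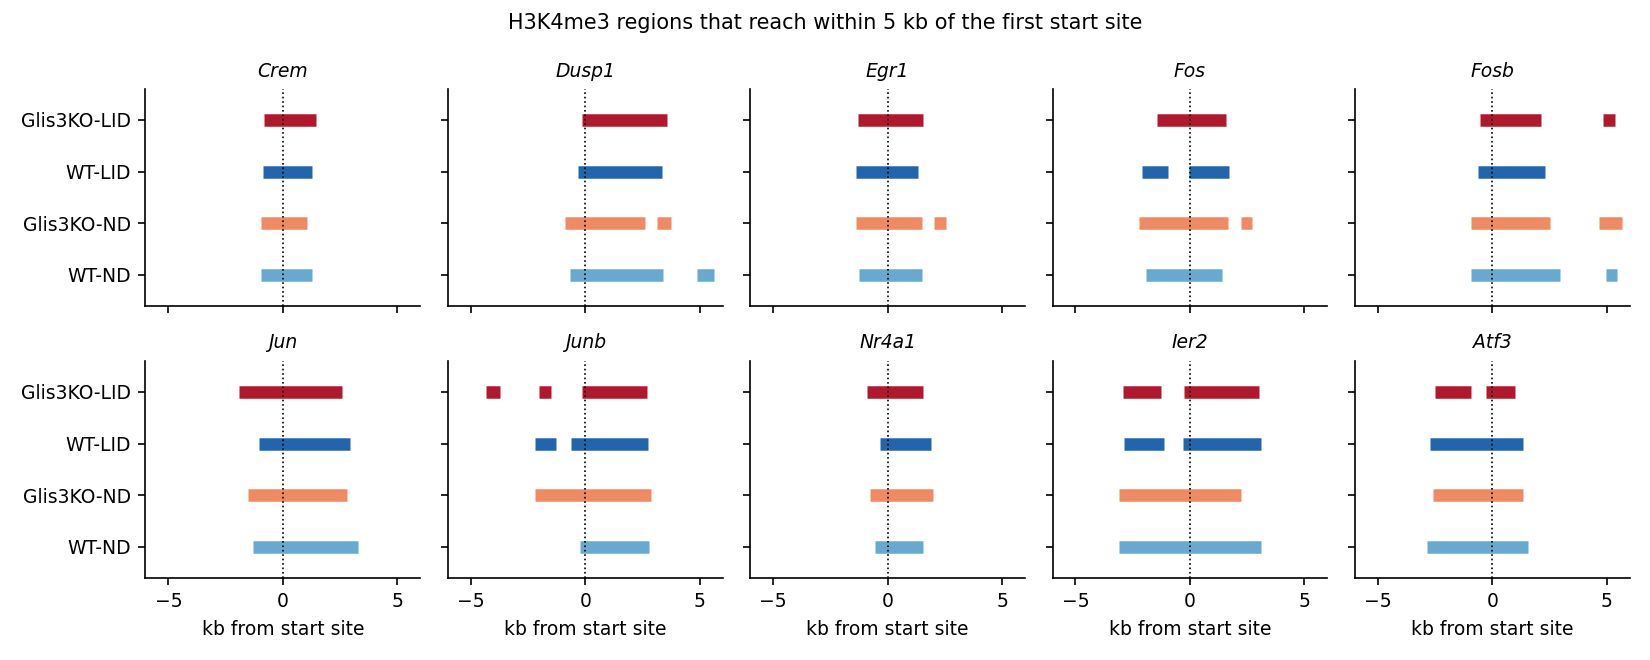
H3K4me3 regions that reach within 5 kb of the most upstream start site of each gene, drawn as bars by distance in kb from that site in the direction of transcription, in Glis3KO-LID, WT-LID, Glis3KO-ND and WT-ND thyroids. At Ier2 the bar is unbroken in both ND libraries and interrupted upstream of the start site in both LID libraries.

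A width ratio of 1.5 was used to describe changes between 2 libraries. Between Glis3KO-LID and WT-LID no member was wider by this ratio (1.96% of genes with the mark in both libraries) and none was narrower (13.7%). The median ratio was 1.0241 over the members, while it was 0.8889 over all genes, a shift of -0.17 on the log2 scale. Widths were larger in Glis3KO-LID for 6 members and smaller for Fosb, Junb, Ier2 and Atf3, and relative to the median of all genes smaller only for Junb and Atf3. Between Glis3KO-ND and WT-ND, Junb was 1.67-fold wider (1 of 10, against 4.43% of genes) and no member was 1.5-fold narrower (5.25%). The median ratios here were 0.9928 over the members and 0.9847 over all genes.

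For the diet, Junb and Ier2 were at least 1.5-fold narrower in Glis3KO-LID than in Glis3KO-ND (2 of 10, against 10.6% of genes), and no member was wider (2.53%). Their ratios were 0.55 and 0.61. With regions up to 5 kb counted, neither passed 1.5-fold. Between WT-LID and WT-ND, Ier2 was narrower (ratio 0.55, 1 of 10, against 4.08% of genes) and no member was wider (6.06%). With regions up to 5 kb counted, Ier2 no longer passed and Fosb did, at a ratio of 0.67. The members' median ratios were 0.8327 for Glis3KO-LID over Glis3KO-ND and 0.9154 for WT-LID over WT-ND, and over all genes they were 0.9333 and 1.0202.

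These 2 diet comparisons share no library. The direction was the same in both for 6 members, Crem, Egr1, Fos, Fosb, Ier2 and Atf3, which were narrower on the LID in both genotypes, against 28.9% of the 11895 genes marked in all 4 libraries. No member was wider on the LID in both genotypes, against 19.5%. Relative to the median of all genes 5 remained, without Egr1 (25.4% of genes), and with regions up to 5 kb counted Dusp1 joined the 6 (29.4%). Crem depended on its 501 bp internal region, since without it the width was larger in Glis3KO-LID, 2268 bp, than in Glis3KO-ND, 2003 bp. For genotype, Fosb, Ier2 and Atf3 were narrower in Glis3KO on both diets (39.7% of genes), of which Atf3 alone remained relative to the median of all genes. With regions up to 5 kb counted, Fosb turned round and was wider in Glis3KO on both diets, with 3142 bp in Glis3KO-LID against 2923 bp in WT-LID and 4456 bp in Glis3KO-ND against 4392 bp in WT-ND. Crem, Egr1, Fos and Nr4a1 were wider in Glis3KO on both diets (11.9%). Crem again rested on the internal region. Relative to the median of all genes these 4 remained, against 25.5% of genes. Each such direction is that of 2 pairs of single libraries.

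H3K27me3 was not listed within 1 kb of a start site of any member in any library (0 of 10 each). The shares of all genes were 17.5% in Glis3KO-LID, 6.5% in WT-LID, 8.68% in Glis3KO-ND and 6.44% in WT-ND. Among genes with H3K4me3, 17.8%, 8.28%, 10.5% and 8.07% also had H3K27me3 in the same order. The Glis3KO-LID list stood apart, with 18040 regions covering 55.11 Mb, against 2631 in WT-LID (7.5 Mb), 4116 in Glis3KO-ND (13.26 Mb) and 3050 in WT-ND (7.47 Mb). The number of reads behind these lists is unknown, and its part in the values below was not tested.

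In that Glis3KO-LID library H3K27me3 came close to 2 members. At Fosb a region of 6226 bp (chr7:19301560-19307785) covered 69.3% of the gene. Its edge was 2.26 kb from the start site and 140 bp from the H3K4me3 region at that site. In the other libraries no H3K27me3 lay over Fosb, and the nearest region was 25.7 kb (WT-LID), 29.31 kb (Glis3KO-ND) and 29.53 kb (WT-ND) away. At Atf3 a region of 3689 bp (chr1:191177880-191181568) covered 28.3% of the gene in Glis3KO-LID, 1.765 kb from the start site and 791 bp from H3K4me3. Its nearest region was 6.116 kb away in Glis3KO-ND, 7.269 kb in WT-ND and 1007 kb in WT-LID. H3K27me3 over a gene was thus found for 2 of 10 members in Glis3KO-LID, against 22.5% of all genes, and for none in WT-LID (7.38%), Glis3KO-ND (10.3%) and WT-ND (7.79%). The H3K4me3 regions within 1 kb of a start site overlapped H3K27me3 at no member. Farther into Fosb, a separate H3K4me3 region of 501 bp, 4849 to 5349 bp downstream of the start site, lay inside the H3K27me3 region in Glis3KO-LID.

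Nr4a1 had 7 H3K27me3 regions in its window in Glis3KO-LID and none in the other libraries. The nearest was 11.501 kb upstream in Glis3KO-LID, against 170.833 kb in WT-LID, 170.537 kb in Glis3KO-ND and 170.5 kb in WT-ND. Egr1 and Dusp1 each had 1 region in Glis3KO-LID, 23.326 and 24.359 kb away, and none in their windows in the other libraries. Junb kept a similar distance, 25.265 kb in Glis3KO-LID, 25.909 kb in WT-LID, 27.659 kb in Glis3KO-ND and 27.547 kb in WT-ND, each to a region nearest the gene Rtbdn. These regions were not alike in extent, at 10522, 1001, 1634 and 2125 bp in the same order. The WT-LID region did not overlap those of the ND libraries. Ier2 had regions in its window in Glis3KO-LID, the nearest 41.685 kb away, and in Glis3KO-ND, 42.153 kb away and of the narrowest width, 1001 bp. It had none there in WT-LID or WT-ND, where the nearest regions were 102.515 and 102.483 kb away. Crem, Fos and Jun had no region in their windows in any library, and Jun had none within 1644 kb. A region in the window was present for 7 members in Glis3KO-LID, 2 in WT-LID, 4 in Glis3KO-ND and 3 in WT-ND, against 57.6%, 20.2%, 27.4% and 22.1% of all genes.

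**Figure D4:**
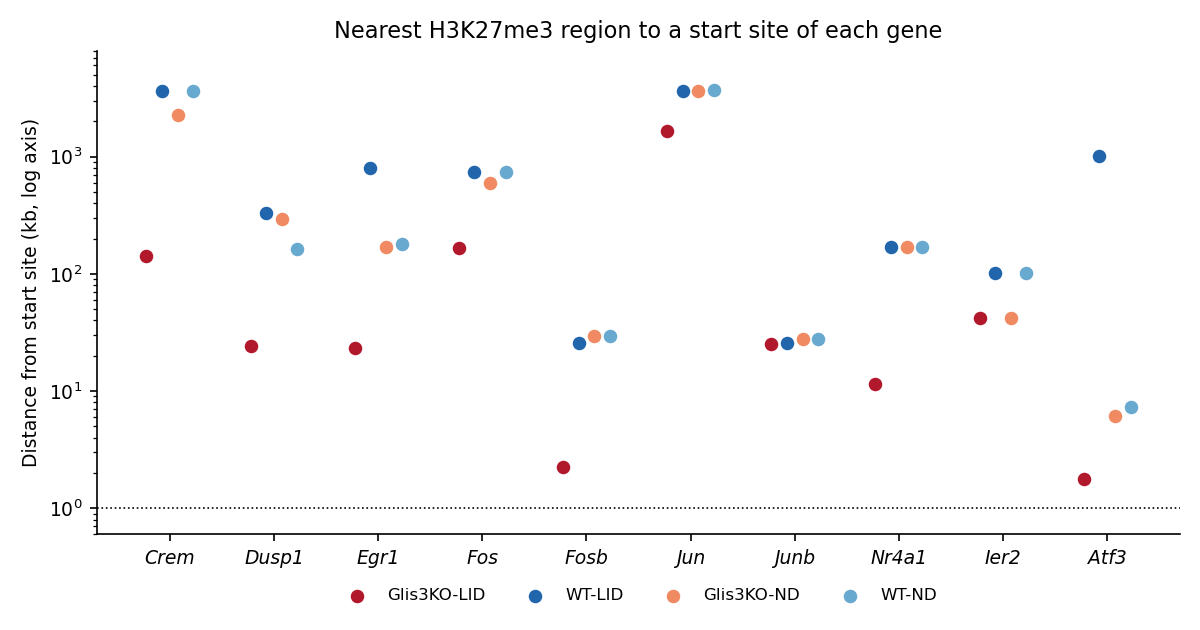
Distance in kb (log axis) from a start site of each gene to the edge of the nearest H3K27me3 region in Glis3KO-LID, WT-LID, Glis3KO-ND and WT-ND thyroids, 1 point for each library. The dotted line is 1 kb, and all points lie above it. Atf3 and Fosb in Glis3KO-LID come closest, at 1.765 and 2.26 kb.

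The members were also set beside 2 wider gene lists. Of 37 other immediate early genes, 34 had an NKX2.1 and 36 a PAX8 peak in the window, 23 had NKX2.1 and 23 PAX8 within 5 kb of a start site, and 32 had an overlapping pair. The shares of all genes were 79.1%, 80.7%, 35.4%, 42.0% and 64.8% in the order named. Of these 37, H3K4me3 marked 33 in Glis3KO-LID, 35 in WT-LID, 35 in Glis3KO-ND and 34 in WT-ND, against 60.1%, 63.0%, 62.5% and 62.2% of all genes. The median H3K4me3 width of the marked ones was 3422, 3313, 3395 and 3099.5 bp in the same order. The members had 2813, 3146, 3697.5 and 3618 bp, so wide regions were not particular to them. The upstream factors described below had 2141, 2403, 1935 and 2338 bp. Some of the 37 genes carried H3K27me3 within 1 kb, namely 8, 6, 6 and 4 in the same order, while no member did. The shares of all genes were 17.5%, 6.5%, 8.68% and 6.44%, and the difference between the 37 genes and the members was not tested. In a WT library the genes with H3K27me3 were Arc, Egr2, Egr3, Egr4, Fosl1 and Npas4. Egr2, a relative of Egr1, had 8946 bp in Glis3KO-LID, 5062 bp in WT-LID, 5875 bp in Glis3KO-ND and 5275 bp in WT-ND. Egr3 had 7180, 6978, 6832 and 4448 bp, and Egr4 had 18069, 6109, 6669 and 3378 bp, in that order. Fosl1, a relative of Fos, had 6473 bp in Glis3KO-LID, 1001 bp in WT-LID, 2701 bp in Glis3KO-ND and none in WT-ND. Arc had 18061 bp in Glis3KO-LID, 1001 bp in WT-LID and none on the ND, and Npas4 had 9152, 1001, 2531 and 1963 bp in the order of libraries above. A width of 1001 bp is the narrowest in the H3K27me3 lists. In WT, Arc and Fosl1 had only such a region, in WT-LID, and Npas4 had one in WT-LID.

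The 15 upstream factors of the members (protein kinase A subunits, CREB and its coactivators, serum response factor with its partners and 2 MAP kinases) had NKX2.1 in the window in 14 and PAX8 in 14. The shares of all genes were 79.1% and 80.7%. NKX2.1 peaks came to 5 kb or less from a TSS in 11 of the 15, against 35.4% of all genes. PAX8 peaks did so in 10, against 42.0%. Of the 10 members 6 had NKX2.1 and 9 had PAX8 at that distance, so NKX2.1 near the TSS was not particular to them. The difference for PAX8 was not tested. All 15 carried H3K4me3 and none carried H3K27me3 in any library. Across the 4 libraries 60.1% to 63.0% of all genes had H3K4me3, and 6.44% to 17.5% had H3K27me3. Most peaks in both lists were found at Pde4d, a cAMP phosphodiesterase, with 30 NKX2.1 and 29 PAX8 peaks. The window takes in the whole gene, and the counts were not adjusted for gene length. Pde4d had neither factor within 5 kb of a start site, and no H3K4me3 within 1 kb of one in any library. Next came Crtc1, a CREB coactivator, with 12 and 15 peaks, and Maff, a small MAF protein, with 11 and 14. Neither factor had a peak in the windows of Dusp4, a relative of Dusp1, and Elk1, a partner of serum response factor. Genes whose pattern was most like the median member were Mex3c, Ankrd50 and Git1. Likeness was the Euclidean distance over 6 values per gene, the log2 of 1 plus each factor's peak count and the log2 H3K4me3 width in the 4 libraries, over 11895 genes. The distances were 0.256, 0.2719 and 0.3081, whereas the closest member was Fos at 0.4146 and the farthest Crem at 1.5585.

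The tissue label was checked against H3K4me3 at marker genes. It was present at 9, 8, 9 and 8 of 9 follicular cell genes in Glis3KO-LID, WT-LID, Glis3KO-ND and WT-ND, with Tg lacking it in both WT libraries. None of 7 immune and 5 skeletal muscle genes had the mark. Of 5 endothelial genes 5, 4, 2 and 3 had it, of 5 fibroblast genes 1, 2, 1 and 2, of 5 C cell genes 2, 3, 3 and 3, of 3 parathyroid genes 1, 1, 1 and 0, and of 4 adipocyte genes 2, 2, 1 and 2, in the same order. More endothelial genes were thus marked in the LID libraries than in the ND libraries. Within WT the difference was Tek alone, with 501 bp in WT-LID, the narrowest width in these lists. Within Glis3KO it was Tek (628 bp), Emcn (501 bp) and Pecam1 (1662 bp in Glis3KO-LID). The part of this difference in the widths of the members was not tested. Glis3, the targeted gene, had 2996 bp of H3K4me3 in Glis3KO-LID, 2676 bp in WT-LID, 3265 bp in Glis3KO-ND and 2838 bp in WT-ND, a promoter mark that does not check the knockout.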

How the data were processed

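ChIP-seq of mouse thyroid glands was used, as 10 deposited peak lists (NKX2.1 and PAX8 in WT-LID, H3K4me3 and H3K27me3 in 4 groups), each from 1 library. Per the labels and the study's methods, the authors trimmed reads with Cutadapt 1.12, aligned them to mm10 with Bowtie 1.2, discarded duplicate reads (Picard 1.110) and identified peaks by HOMER 4.10.3. The notes also name bedtools 2.24.0. The deposited lists give coordinates and a name, with no score, count or p-value, so depth is unknown and strong and weak peaks count alike. The NKX2.1 list held 46636 peaks and the PAX8 list 51586, in each case more than the study reports for that factor. The peaks counted here are those of the deposited lists, and the reason for the difference is unknown. Input use for the histone lists was not given in the sources used here. A longer list may come from a deeper library. The methods give Glis3-EGFP mice for NKX2.1 and PAX8 and name another Glis3 allele, tm3, for the knockout. The labels were followed.

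Intervals were compared with curated RefSeq transcripts on GRCm38 (mm10) in Python 3.11.15 with pandas 2.3.3 and NumPy 2.4.6, with any overlap of 1 bp counting, and the code was tested on simulated intervals. No peak passed a chromosome end of that build (0), and 35 lay on unplaced sequences. Members and lists were chosen with earlier results of these data known. The named genes were all members and, in the other lists, the 3 genes with most peaks, those with no peak, those with H3K27me3 in a WT library and the 3 most like the median member. Alternatives were other windows, overlaps, folds and list lengths. The rat lists and the combined lists were not used, and 1 follicular cell marker is not reported here.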

Additional observations from a re-analysis of the deposited data

How the results depend on the processing

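Of 67 values recomputed under another setting, 54 stayed within 1.5 times the value reported and 13 did not. With windows of 20 kb either side, the NKX2.1 peaks numbered 28 and the PAX8 peaks 34. Counting only peaks nearest to the member's own start site, an alternative chosen after seeing the data, gave 31 NKX2.1 and 35 PAX8 peaks. H3K27me3 lay within 5 kb of a start site for 2 members in Glis3KO-LID, Fosb and Atf3. At a ratio of 5 to 4 in H3K4me3 width, 1 member passed between Glis3KO-LID and WT-LID (Atf3, 0.685), 2 between Glis3KO-ND and WT-ND, 5 between Glis3KO-LID and Glis3KO-ND and 2 between WT-LID and WT-ND. At a ratio of 2 no member passed, 0 in each comparison. With regions within 5 kb counted, chosen after seeing the data, 0 passed between Glis3KO-LID and Glis3KO-ND. Dividing widths by the median ratio of all genes changed no count at a ratio of 1.5. A stricter peak threshold could not be tried because no list holds a score. No paired analysis was possible because each group had 1 library, and for the same reason no replicate could be left out. The unknown depth of the lists limits every count, most of all for H3K27me3 in Glis3KO-LID.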
